A study of Mus musculus with 4 samples.

Results

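The promoters described here lie on mouse chromosome 7 in the stretch around the gene for PA1. The first has its transcription start site (TSS) at position 16807342 (Dhx34) and the last at 136735422 (Wdr11), and the limits of the stretch lie just outside these. They were chosen by position and read number, as all protein-coding promoters of this stretch (GENCODE vM1 annotation, mm9) with 50 or more reads in 2 H3K4 chromatin libraries combined, 1 from knockout and 1 from wild-type B cells. This kept 713 of the 1616 protein-coding promoters of the segment, and 12186 of 22367 in the whole genome. A promoter here is 1 kb on either side of a TSS, the annotated one with the most reads. The limits of the segment came from these same files, where reads of the knockout library mismatched the reference genome at many positions between them. The ratio of knockout to wild type, the mismatches and the distance to PA1 were all part of how the segment was selected, so the values below describe these 2 libraries and none of them was tested.

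The series asked how histone modifications of activated B cells differ between mice with and without PA1. The 2 libraries used here are labelled PA1-KO and PA1-WT with an antibody to H3K4, and the labels give no methylation state for it. Both came from spleen B cells of mice 6 to 14 weeks old, purified by removing cells that carry CD43 and grown for 2 days. The culture held LPS at 25 µg/ml with either dextran-coupled anti-IgD at 2.5 ng/ml or IL-4 at 5 ng/ml, and the labels of these 2 samples do not say which. The labels give neither the strain, nor the part of PA1 that was removed, nor the promoter of any Cre, nor the number of mice behind a library. Native chromatin was cut with MNase, and each ratio compares 1 library with 1 library, with no replicate. The other 2 samples of the series, labelled H3K4me4, were not analysed here.

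PA1 is a small nuclear protein that binds PTIP, and both belong to the complex that holds the histone methyltransferases MLL3 and MLL4. Methylation of lysine 4 on histone H3 marks active promoters and enhancers, with the state depending on the element. In activated B cells PTIP is known for its part in immunoglobulin class switching. As general background, when a gene is altered in one mouse strain and the allele is bred into another, the DNA next to the gene travels with it, so that a stretch of the first strain's chromosome can remain around the allele.

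The mismatches define the segment, and so the sequences that carry them are shown first. A position was taken as non-reference in the knockout when 3 or more knockout reads mismatched there, these were 80% or more of the knockout reads covering it, and 3 or more wild-type reads covered it. The files name the reference base at a mismatch but not the base that was read. The lines below give 29 bases of the NCBIM37 genome (the assembly of mm9), plus strand, 5′ to 3′, with the mismatching position in capitals. They come from the first and the last promoter of the segment and from promoters of genes at work in B cells. A coding exon here means an exon of a protein-coding gene with no annotated UTR at the position.
Dhx34, chr7:16806973-16807001, in an intron of Dhx34: tcacctccaactttCaaggttctgtttca
Bcl3, chr7:20407649-20407677, in an intron of Bcl3: tttcctagctgtctTtgggtcatcaactt
Nfkbid, chr7:31207016-31207044, in an intron of Nfkbid: gggtgcaaggactgAgaggcctgataccg
Cd22, chr7:31664855-31664883, in an intron of Cd22: gcccggacgggtgaAgaggtagagcaggg
Irf3, chr7:52253718-52253746, in a coding exon of Irf3: gacagcacctgggaAaagactctggaaat
Plk1, chr7:129303928-129303956, in an intron of Plk1: aaccagtgtatgggTagaactatcagaaa
Wdr11, chr7:136735511-136735539, in a coding exon of Wdr11: acttcaaggtgtcaGcgcgcaccctcacc

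At each of these 7 positions every knockout read mismatched and the wild-type reads were of both kinds. At the Dhx34 position 10 of 10 knockout reads and 2 of 10 wild-type reads mismatched. At Bcl3, an atypical IκB protein of the NF-kB pathway, the counts were 12 of 12 and 3 of 11. At Nfkbid, another nuclear IκB protein, they were 10 of 10 and 4 of 9. The positions near the B cell inhibitory receptor Cd22 and the interferon regulator Irf3 showed the same split. Cd22 had 6 of 6 knockout and 4 of 5 wild-type reads mismatching. Irf3 had 8 of 8 and 3 of 11, and the window of its neighbour Bcl2l12 holds the same position. Plk1, a mitotic kinase, had 15 of 15 and 8 of 10. At Wdr11, the last promoter, 11 of 11 and 10 of 16 reads mismatched.

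The libraries had 5259995 (knockout) and 5539475 (wild type) reads on nuclear chromosomes, and the 713 promoters took 156944 and 178672 of them. Promoters of 7 B cell markers had 376 to 570 knockout and 385 to 585 wild-type reads, so the labelled cell type had its defining promoters marked. Promoters of 7 T and NK cell markers had at most 3 reads in either library. Of 6 myeloid markers, Csf1r had no read, Cd14 had 118 and 171, Tyrobp 16 and 31, and the others at most 5; Hba-a1 and Hbb-b1, of the erythroid markers, had at most 3, while Klf1 had 75 and 88. In bulk chromatin, fewer marked cells and less mark per cell cannot be told apart. Within the segment the 2 libraries also differ in sequence. At the knockout non-reference positions 99.9% of knockout and 47.8% of wild-type reads mismatched. For every promoter of the segment, loss of PA1 and the sequence linked to it cannot be told apart, and neither was tested.

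Across the segment the share of promoters lower in the knockout was close to that of the genome, while 6 of the 14 promoters of the genome that were lower by 3-fold or more lay there. Ratios are knockout over wild type after scaling, with a 95% interval for counting error alone: reads made by PCR and carrying no molecular tag do not count separate molecules. A promoter was counted as lower or higher when it differed by at least 1.5-fold and its interval excluded 1. By that rule 35 of 713 segment promoters were lower, or 4.91%, beside 562 of 11473 outside it (4.9%) and 597 of all 12186 (4.9%). Counted as higher were 3 segment promoters (0.421%), beside 78 outside (0.68%) and 0.665% of all. The rule that set the segment used this contrast, and the 2 shares are given as a description. Because PA1 and Gm20418 are annotated at 1 shared TSS, the 35 lower promoters cover 34 separate windows. Scaled to background reads 120 of 713 were lower, beside 1915 outside (16.7%). With trends of level and GC content removed 13 were lower (1.82%), beside 128 outside (1.12%). These 13 were Trim12a, Trim30d, Sult2b1, Trim6, Ffar2, Apoe, Ceacam1, Pgpep1l, PA1, Gm20418, Zfp93, Kcne3 and Sv2b.

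With larger folds the shares inside and outside the segment parted. At 2-fold, 15 segment promoters (2.1%) and 147 outside (1.28%) were lower, beside 1.33% of all. At 3-fold the numbers were 6 (0.842%) and 8 (0.0697%), beside 0.115% of all. At 4-fold they were 5 (0.701%) and 4 (0.0349%), beside 0.0739% of all. No segment promoter was higher by 2-fold (0%), beside 13 outside (0.113%) and 0.107% of all. The 3-fold numbers were 13 and 43 at a minimum of 20 reads, and 3 and 0 at a minimum of 100. These larger folds were looked at after the data had been seen.

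**Figure D1:**
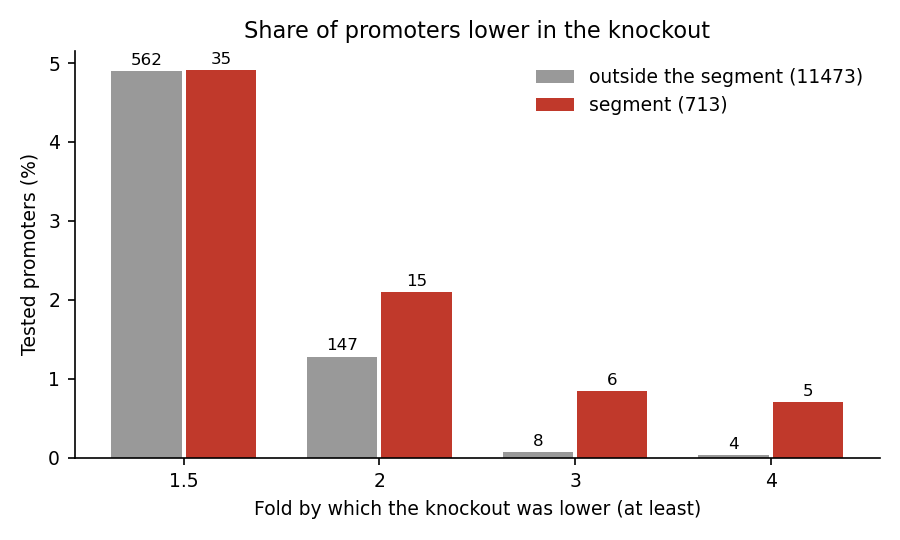
Share of tested promoters (y axis, percent) that were lower in the knockout library by at least 1.5, 2, 3 or 4-fold (x axis) with an interval excluding 1. Grey bars are the 11473 promoters outside the segment and red bars the 713 inside it, with the number of promoters above each bar. The bars are level at 1.5-fold, while 6 segment promoters stand beside 8 outside at 3-fold.

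Most promoters of the segment had nearly the same signal in both libraries. The median log2 ratio was -0.02 (order-statistic interval -0.04 to 0.01), with quartiles of -0.19 and 0.12, and that of the promoters outside it was 0.00. On the rest of chromosome 7, 178 promoters had a median of -0.02, with 5 lower and 1 higher. Most of the lower promoters had few reads. With 50 to 100 reads 15 of 49 segment promoters were lower (30.6%, beside 26.5% outside), and with 100 to 200 reads 15 of 66 (22.7%, beside 233 of 1112). With 200 to 400 reads 5 of 167 were lower (2.99%, beside 3.56%), and with 400 to 800 reads none of 366. The part of read level in the count was not tested. At the 50-read minimum itself, Dll3 with 23 knockout and 27 wild-type reads was just inside, and Mill2 with 28 and 21 was just outside.

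The targeted gene was among the lower promoters, and its tested neighbours were not, apart from Gm20418 at the same TSS. PA1 (2900092E17Rik, ENSMUSG00000030680.2; now named Pagr1a) has its TSS at 134159998 on the minus strand. Reads there were 114 in the knockout and 261 in the wild type (0.498, 0.396 to 0.624). Both sides of the TSS were lower, with 86 and 192 reads upstream (0.511, 0.392 to 0.663) and 28 and 69 downstream (0.463, 0.287 to 0.728). From 1 to 5 kb downstream, where the TSS of the major vault protein gene Mvp lies, the libraries held 197 and 226 reads (0.995, 0.818 to 1.21). The lower signal was thus seen in the window around the TSS and not in the peak after it. The deleted stretch of the gene is not named in the labels, so a read count here does not check the genotype label.

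The 5 tested promoters on either side of PA1 were not counted as different. On the lower side, Taok2, a kinase, had 300 and 368 reads (0.930, 0.796 to 1.09), and Tmem219, the ubiquitin ligase adaptor Kctd13, the phosphatidylinositol synthase Cdipt and Mvp had ratios of 1.01, 1.01, 1.03 and 1.01. Beyond PA1, Prrt2 had 24 and 41 reads and a wide interval (0.668, 0.386 to 1.13). The zinc-finger factor Maz had 125 and 124 reads (1.15, 0.890 to 1.49), and the mitotic kinesin Kif22 330 and 358 (1.05, 0.903 to 1.23). AI467606 had a ratio of 1.01, and Spn, which encodes the CD43 used in purifying these cells, had 142 and 185 reads (0.876, 0.699 to 1.10). Among all 72 promoters within 1 Mb of PA1, 4 were lower: PA1, Gm20418, Lat and Zfp629. Lat and Zfp629 were not counted with trends of level and GC content removed.

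Among the lowest promoters were Trim30d, Trim12a and Trim6, with Sult2b1 and Ffar2, and the sequences before some of them are shown because the results turn on these genes. TRIM proteins are ubiquitin ligases, many of them induced by interferon and active against viruses, and chromosome 7 carries a cluster of closely related copies. Sult2b1 is a sulfotransferase for cholesterol and steroids, and Ffar2 is a receptor for short-chain fatty acids. Shown are PA1 and those of the promoters just named whose upstream bases lie outside any annotated UTR. The lines give the 200 bases before the TSS, NCBIM37, 5′ to 3′ on the strand of the gene, with CG pairs in capitals. Those of PA1 and Sult2b1 overlap exons of other transcripts of the same genes.
PA1, chr7:134159999-134160198, minus strand: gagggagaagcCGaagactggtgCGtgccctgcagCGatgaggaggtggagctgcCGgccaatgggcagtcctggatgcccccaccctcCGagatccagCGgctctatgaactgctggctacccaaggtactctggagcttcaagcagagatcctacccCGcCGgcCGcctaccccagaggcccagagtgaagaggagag
Sult2b1, chr7:52997854-52998053, minus strand: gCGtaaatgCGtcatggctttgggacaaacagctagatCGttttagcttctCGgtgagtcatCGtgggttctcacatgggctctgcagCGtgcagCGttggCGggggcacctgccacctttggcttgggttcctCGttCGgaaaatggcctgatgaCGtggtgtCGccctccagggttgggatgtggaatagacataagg
Trim6, chr7:111367107-111367306, plus strand: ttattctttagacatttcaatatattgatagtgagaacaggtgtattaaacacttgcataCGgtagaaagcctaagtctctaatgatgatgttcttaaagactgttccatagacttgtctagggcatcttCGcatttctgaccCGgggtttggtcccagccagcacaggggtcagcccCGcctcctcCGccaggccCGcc
Ffar2, chr7:31606159-31606358, minus strand: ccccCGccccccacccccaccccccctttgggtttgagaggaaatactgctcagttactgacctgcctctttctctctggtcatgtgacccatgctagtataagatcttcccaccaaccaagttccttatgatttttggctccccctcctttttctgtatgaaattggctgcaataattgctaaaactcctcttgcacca

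These stretches differ in CG pairs, with 12 in Sult2b1, 9 in PA1, 6 in Trim6 and 1 in Ffar2. In the same 200 bases, the median was 16 CG pairs over all 12186 tested promoters, 13 in the segment, 9 in its 35 lower promoters and 4 in the 6 lowest. A stretch with 5 or fewer CG pairs stood at 1339 of the 12186 tested promoters, 14.2% of the segment and 28.6% of its lower promoters. Over the whole 2 kb window, the lower promoters of the segment had a median GC content of 55.3% and an observed-to-expected CpG ratio of 0.450, and the lower promoters outside it 58.8% and 0.623. The medians over the whole segment were 54.0% and 0.577.

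Trim30d, Trim12a and Sult2b1 held almost no knockout reads. Trim30d (TSS 111656339) had 1 knockout and 90 wild-type reads, and 85 of the wild-type reads lay downstream of the TSS, where the knockout had 1. From 1 to 5 kb downstream of the TSS, the libraries held 0 and 13. The ratio over the window was 0.0127 (0.000318 to 0.0725), resting on 1 knockout read. Trim12a (TSS 111463857) had 0 and 59 reads, which allows a ratio of up to 0.0736, and the next 4 kb downstream held 0 and 21. Sult2b1 (TSS 52997853) had 5 and 150 reads (0.0380, 0.0122 to 0.0908), with 2 and 135 of them downstream. In each of these the wild-type signal had the shape of a promoter peak just after the TSS, and the knockout library lacked the peak. No read on the nuclear chromosomes held more than 3 mismatches, so DNA that differs more from the reference may give no reads. Missing reads and a missing mark cannot be told apart at these promoters, and this was not tested.

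Trim6, Ffar2 and Apoe kept part of their signal. Trim6 (TSS 111367307) had 12 reads in the knockout and 68 in the wild type (0.201, 0.0992 to 0.375). At Ffar2 (TSS 31606158) 23 and 107 reads gave 0.245 (0.149 to 0.388), and from 1 to 5 kb downstream 4 and 34 reads gave 0.134 (0.0346 to 0.377). At Apoe, the gene of a lipoprotein of cholesterol transport (TSS 20283596), 22 and 80 reads gave 0.314 (0.186 to 0.508). Before its TSS the libraries had 12 and 58 reads (0.236, 0.115 to 0.445) and after it 10 and 22 (0.519, 0.219 to 1.14). The intervals of these sides overlap.

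**Figure D2:**
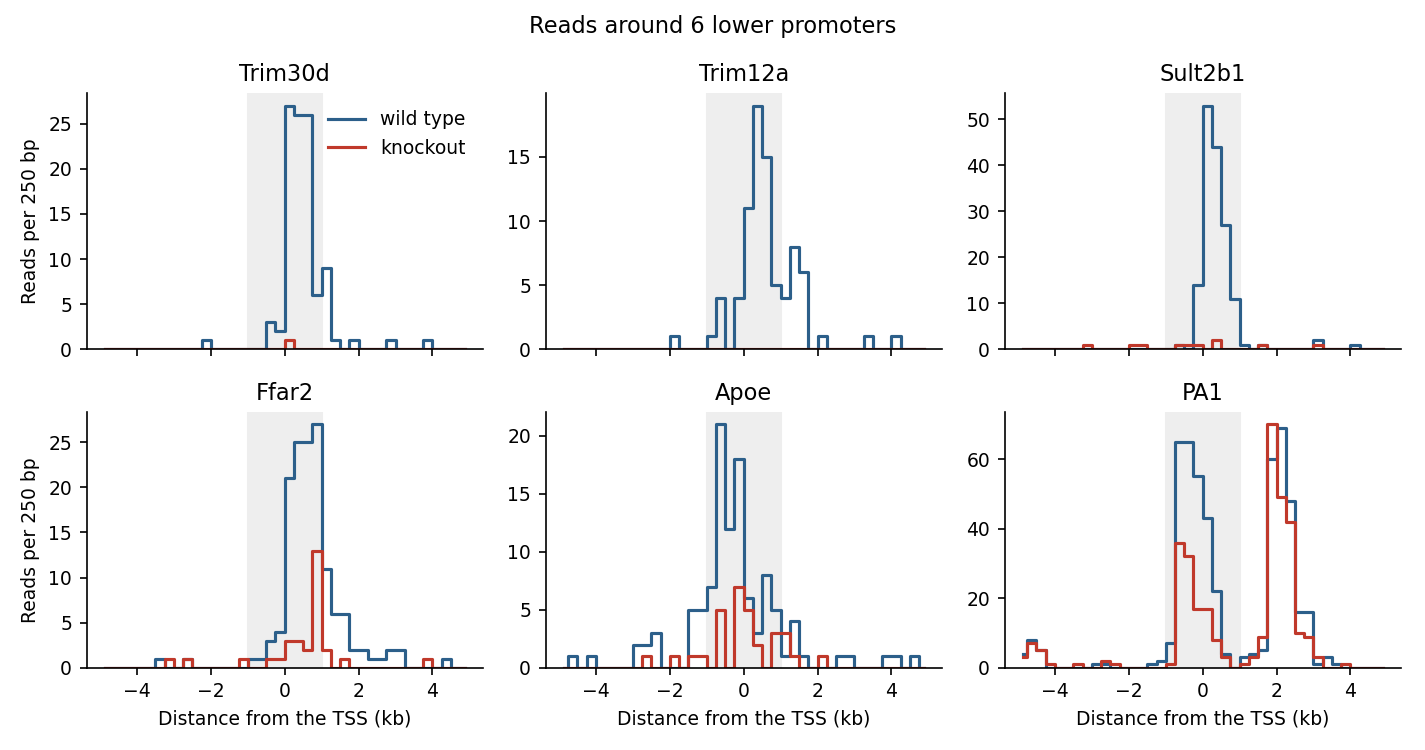
Reads per 250 bp (y axis) by distance from the TSS in the direction of the gene (x axis, kb) at Trim30d, Trim12a, Sult2b1, Ffar2, Apoe and PA1, wild type in blue and knockout in red, with the 1 kb either side of the TSS in grey. The knockout line lies on or near 0 at Trim30d, Trim12a and Sult2b1. At PA1 it is lower inside the grey band, and the second peak downstream has similar heights in both libraries.

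Ceacam1, Pgpep1l, Dkk3 and Sv2b followed with smaller differences. Ceacam1, an adhesion molecule of immune and epithelial cells, had 31 and 102 reads (0.347, 0.224 to 0.523). Pgpep1l had 17 and 51 (0.380, 0.206 to 0.670), and Dkk3, a secreted protein of the Dickkopf family, 19 and 51 (0.425, 0.237 to 0.733). Dkk3 was not counted with trends removed (0.588). Sv2b, a synaptic vesicle protein, had 51 and 109 (0.534, 0.375 to 0.751). Gm20418 repeats the counts of PA1. The other 23 lower promoters had ratios from 0.457 (Zfp93) to 0.666 (Ccne1), with 53 to 285 reads in both libraries together. They included the ion channel genes Scnn1g and Kcne3, the growth factor receptor Igf1r, the nucleotide receptor P2ry2 and the neurotrophin Ntf5.

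The promoters counted as higher were 3. Zfand6, a zinc-finger protein with an A20-type domain, had 239 knockout and 161 wild-type reads (1.69, 1.38 to 2.08). Hpn, the membrane protease hepsin, had 87 and 52 (1.91, 1.34 to 2.75), and Fam189a1 39 and 24 (1.85, 1.09 to 3.22). Zfand6 was not counted when scaled to background reads (1.37) or with trends of level and GC content removed (1.11), and Fam189a1 was not counted when scaled to background reads (1.5).

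Of the gene families listed, the TRIM genes had the most lower promoters, and their members were spread from no knockout read to more knockout than wild-type reads. Of 16 in the segment 10 were tested, and Trim6, Trim12a and Trim30d were the 3 lower ones, beside 4.9% of all tested promoters. Trim12c, the near copy of Trim12a, had 170 and 159 reads (1.22, 0.977 to 1.52), and Trim30a, the best-known Trim30 copy and a restrainer of NF-kB signalling, 211 and 191 (1.26, 1.03 to 1.54). Neither reached 1.5-fold. Trim30b had 57 and 82 reads (0.793, 0.556 to 1.13). Trim34a (1.11), Trim21 (1.04), Trim68 (1.15) and Trim3 (0.810) were not counted as different. Trim5, the homologue of a retroviral restriction factor, had 5 and 31 reads and so stayed under the minimum. Several of these genes are near copies of each other, and no source used here says how reads matching more than 1 place were treated, so the split of reads among them is uncertain.

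Of 21 tested promoters of genes for B cell surface and signalling proteins 1 was lower, a share near the 4.9% of all tested promoters, and none was higher, with a median log2 ratio of -0.05 and ratios from 0.542 to 1.21. The lower one was Lat, an adaptor of T cell receptor signalling, with 19 and 40 reads (0.542, 0.297 to 0.958), and it was not counted with trends removed. The B cell receptor component Cd79a had 376 and 385 reads (1.12), and the inhibitory receptor Cd22 474 and 585 (0.925). The receptors Il4ra (451 and 513 reads) and Il21r (522 and 568, 1.05) were level as well. Coro1a, an actin regulator of lymphocytes, had the most reads of the segment, 651 and 711 (1.05). Among the lowest of those not counted were the small GTPase Rras2 with 120 and 170 reads (0.806) and the B cell kinase Prkcb with 406 and 529 (0.876).

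In the NF-kB, interferon and survival list 11 of 12 were tested, 1 was lower (Trim30d) and none higher, with a median log2 ratio of 0.02. Among all tested promoters 4.9% were lower, and 1 in a list this short says little about the list. The NF-kB members Bcl3 (1.05), Nfkbid (1.01), Nfkbib (0.986) and Relb (0.877) and the interferon regulator Irf3 (1.01) lay between 0.877 and 1.05. The promoters of the apoptosis genes Bbc3 and Bax were below 1 without reaching 1.5-fold. Bbc3, which encodes PUMA, had 182 and 276 reads (0.753, 0.621 to 0.911), and Bax 187 and 259 (0.824). Of the DNA repair and replication list 13 were tested and 1 was lower, again beside 4.9% of all tested promoters. It was the cyclin E gene Ccne1 with 105 and 180 reads (0.666, 0.518 to 0.852), which was not counted with trends removed. The helicase Blm (1.22) and the polymerase subunit Pold3 (1.25) had the highest ratios of that list, and its median log2 ratio was 0.02. Of 5 imprinted genes only Ube3a was tested, with 364 and 434 reads (0.957).

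Other families differed in how many members carried the mark. All 7 Rps promoters were tested, with ratios of 0.972 to 1.20, and 3 of 4 Rpl promoters, with 1.06 to 1.18; none was counted. Of 61 zinc-finger genes named Zfp 48 were tested and 2 were lower, Zfp93 and Zfp629, a share near the 4.9% of all tested promoters. Of 213 olfactory receptor genes 1 was tested, and of 27 kallikreins 1, neither counted as lower. Single tested members were lower in the Ceacam family (1 of 15 tested) and in the Sult and Apo families, Sult2b1 and Apoe. Of 14 Cyp2 genes 2 were tested and Cyp2s1 was lower, and of 4 Fxyd genes 2 were tested and Fxyd7 lower. In these small families too few members were tested to set a share beside the 4.9% of all tested promoters.

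The limits of the segment were set from these mismatches, which were denser inside it than outside. In it, 971 knockout non-reference positions were found among 640569 positions covered by 3 or more reads in both libraries, or 152 per 100 kb compared. The rest of chromosome 7 had 9 (6.11 per 100 kb) and the other chromosomes 579 (5.66 per 100 kb). The first position of the segment was 16806947 and the last 136736041. The first 2.5 Mb of the segment had 99 in 21715 compared, and the 2.5 Mb below it 4 in 9179, the nearest at 16637657. At the far side, the last 2.5 Mb had 56 in 39302, and from there to the end of the chromosome there was none in 79519.

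At these positions the knockout library was uniform and the wild-type library was mixed. Of the knockout reads covering them 5341 of 5345 mismatched (99.9%), where the choice of positions asks for at least 80%. Of the wild-type reads 2956 of 6189 mismatched (47.8%, exact interval 46.5 to 49.0), each read counted once. At 868 of the 971 positions the wild-type reads were of both kinds, at 55 none mismatched and at 48 all did. On the other chromosomes the wild-type share at positions chosen the same way was 71.1% (69.6 to 72.6). Whether both kinds of read came from each mouse or from different mice pooled in the library cannot be told apart here.

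A narrower measure, positions that mismatch in 1 library and have no mismatch in the other, gave 70 for the knockout and 18 for the wild type in the segment. Of the 70, 55 had 80% or more of knockout reads mismatching, and of the 18 none did. At 530 further positions both libraries had 3 or more mismatching reads. At 524 of these every covering knockout read mismatched, and at 49 every covering wild-type read. The 70 positions seen in the knockout alone are few beside the 971 at which nearly all knockout reads mismatched. Over all reads of the segment, 11.2% of knockout and 8.61% of wild-type reads held a mismatch, beside 7.86% and 7.26% in the rest of the genome.

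The 24 bins of 5 Mb were filled unevenly. The bin from 26.8 to 31.8 Mb had 107 promoters and 1 lower, Ffar2. That from 106.8 to 111.8 Mb, with the TRIM cluster, had 49 and 6, the most of any bin. The bin of PA1 (the last) had 89 and 4, and the first bin 56 and 4. In all, 15 bins held at least 1 lower promoter. The bin from 121.8 to 126.8 Mb, with 470 non-reference positions per 100 kb, had none among 20, and the first bin had 421 per 100 kb. Over all tested promoters 4.9% were lower, so a bin with 20 promoters may hold none.

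The wild-type share of mismatching reads was near 50% in most bins. It was 47.0% (44.2 to 49.9) in the first bin, with 198 positions, and 45.1% (40.7 to 49.5) in the bin of PA1, with 75. It departed from that level at 81.8 to 86.8 Mb, with 74.8% (66.8 to 81.8), and at 111.8 to 116.8 Mb, with 32.0% (32 of 100 reads). From 101.8 to 106.8 Mb it was 37.5% (30.5 to 44.9). Across the 22 bins with 5 or more promoters, Spearman's rho between the density of positions and the median log2 ratio was -0.18, and between the density and the percent of lower promoters -0.16. Both are descriptions, since the bins share the libraries and their depth.

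**Figure D3:**
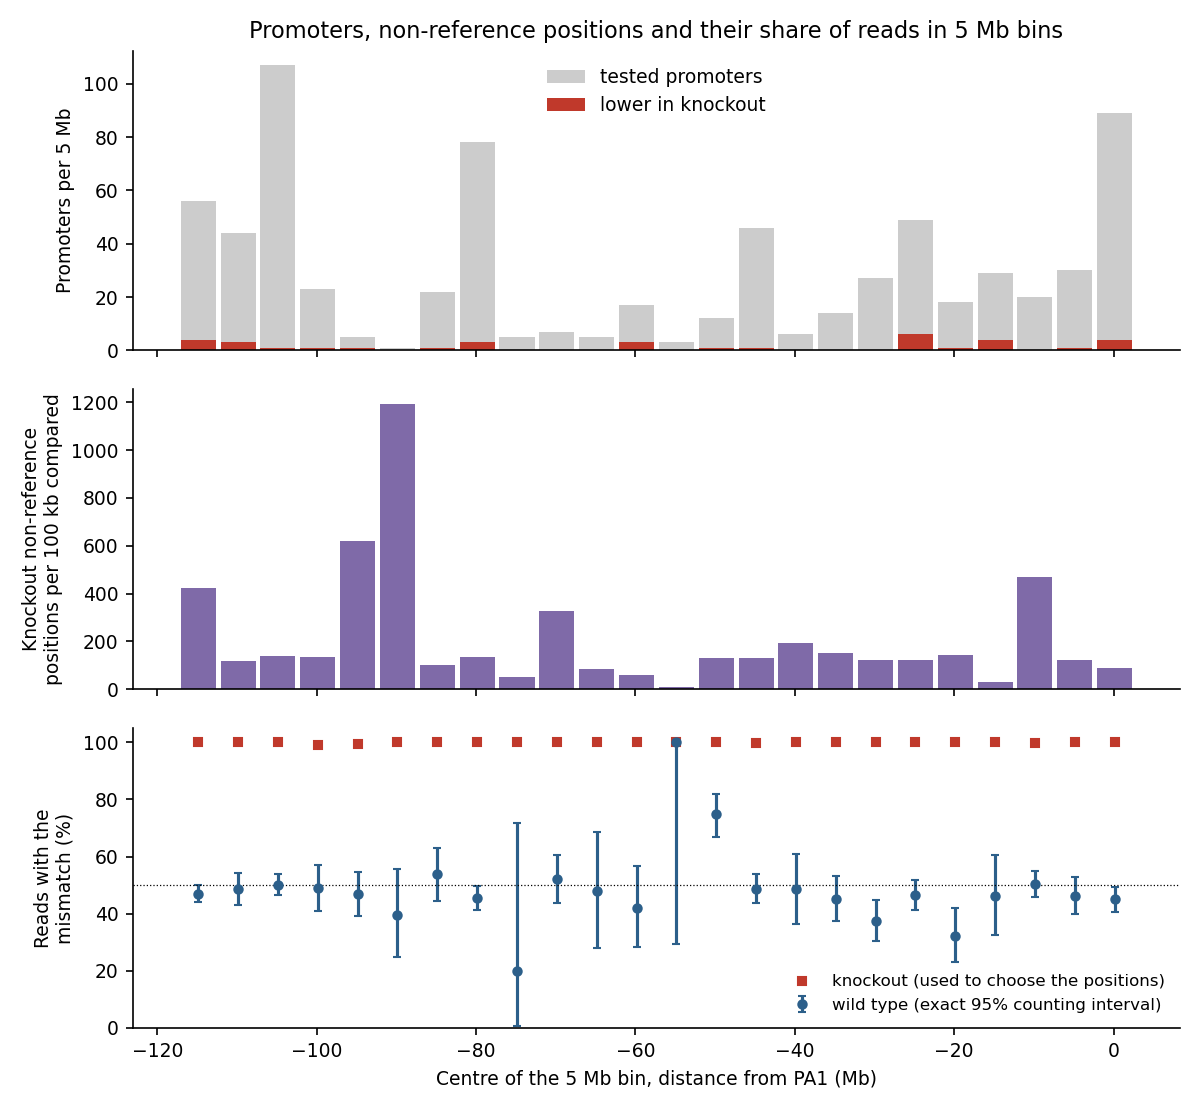
The 24 bins of 5 Mb by the distance of their centre from PA1 (x axis, Mb). From the top, the number of tested promoters with the lower ones in red, the knockout non-reference positions per 100 kb compared, and the percent of reads mismatching at them in the knockout (red squares) and the wild type (blue circles with exact 95% counting intervals). The knockout squares lie at or near 100%, where the choice of positions asks for at least 80%, and the wild-type circles lie near 50% in most bins.

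Lower promoters were found both near PA1 and far from it. Over all tested promoters 4.9% were lower, and the distance classes without a lower one held few promoters. Within 1 Mb 4 of 72 were lower (5.56%), from 1 to 2.5 Mb none of 16, from 2.5 to 5 Mb none of 13 and from 5 to 10 Mb 1 of 31, Scnn1g. From 10 to 20 Mb 5 of 42 were lower (11.9%), from 20 to 40 Mb 6 of 107 and from 40 to 80 Mb 5 of 103. Beyond 80 Mb 14 of 329 were lower (4.26%), among them Sult2b1, Ffar2, Apoe and Ceacam1. Over the 713 promoters Spearman's rho between log2 ratio and distance was 0.02, again as a description. Of the 6 lowest promoters, Trim6, Trim12a and Trim30d lay together in the TRIM cluster, while Sult2b1, Ffar2 and Apoe lay over 80 Mb from PA1.

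**Figure D4:**
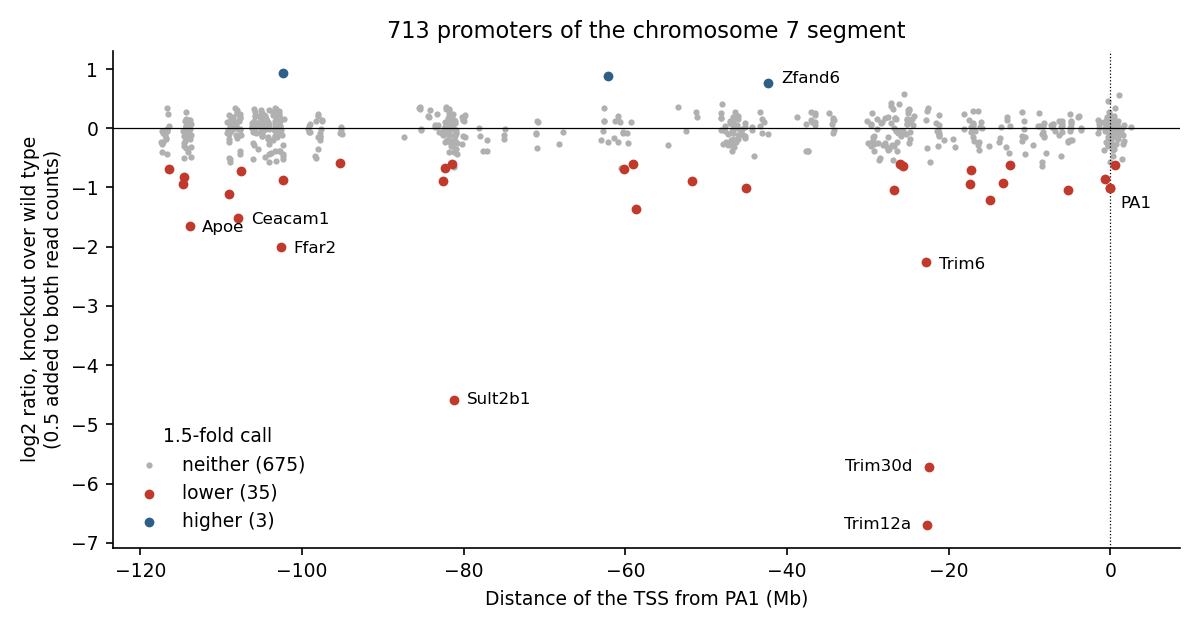
The log2 ratio of knockout over wild type, with 0.5 added to both read counts (y axis), of each of the 713 promoters by the distance of its TSS from PA1 (x axis, Mb). Red points are the 35 lower, blue the 3 higher and grey the 675 other promoters. Most points lie near 0 along the whole segment, and Trim12a, Trim30d and Sult2b1 stand far below the others.

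Directly around PA1 no knockout non-reference position was found between 133848756 and 134338402, a stretch of 489.6 kb with 17455 compared positions. It held 21 promoters, of which PA1 and Gm20418 were lower. By compared positions it was the fourth longest of 972 such stretches. The longest ran on from it, from 134338402 to 135112202, with 29227 compared positions, 33 promoters and 1 lower. Within 1 Mb of PA1 the segment had 33.3 non-reference positions per 100 kb compared. The distance classes from 1 to 10 Mb had 222 to 264, and the farther classes 74.9 to 194.

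None of the promoters that carried such positions was counted as lower. In 240 promoters the window held 1 or more, and none of these was lower or higher; all 35 lower and 3 higher promoters were among the 473 without one. The 2 groups differed in level, with a median of 531 reads in those with a position and 418 in those without. Since a position needs at least 3 mismatching knockout reads, a promoter with few knockout reads can hardly hold any. The 34 lower windows together had 1308 knockout reads, beside 155157 in the 675 windows that were neither lower nor higher. The split therefore cannot show whether lower promoters differ in such positions, and the part of read number in it was not tested. Of single knockout reads, 11.4% (9.72 to 13.2) held a mismatch in the lower windows and 11.6% (11.4 to 11.8) in the 675. The 240 had a median log2 ratio of -0.01 and the 473 one of -0.02.

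Within single promoters the wild-type share of mismatching reads ranged widely. Over the 163 promoters with 10 or more wild-type reads at such positions, the median share was 48.0% and the range 11.8% to 87.5%. The interval lay below 50% in 8 of these promoters and above it in 5. Among the low ones, Sae1, a subunit of the SUMO-activating enzyme, had 2 of 17 reads mismatching, Alg8, an enzyme of protein glycosylation, 7 of 35, and Dhx34, an RNA helicase, 8 of 32. Gm4759 had 21 of 72 and Chchd8 24 of 71. Among the high ones were Mesdc2 with 14 of 16, the RNA-binding protein Tial1 with 12 of 14 and Zbtb32, a repressor of B cell responses, with 20 of 27. Nfkbid, with 18 of 25, was high also, and its ratio of knockout to wild type was 1.01. These promoters were named after their values were seen.

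Repeated mismatches among the wild-type reads were few at the lower promoters. Counting wild-type positions with 4 or more covering reads, those with 2 or more mismatching reads were 2 of 6623 in the 34 lower windows (0.302 per 1000, 0.0366 to 1.09). In the 110 windows that were neither lower nor higher and held 50 to 150 wild-type reads they were 49 of 26812 (1.83 per 1000, 1.35 to 2.42). By window, 5.88% of the lower and 27.3% of the others held 1 or more. The lower windows had fewer wild-type reads, with a median of 79.5 (36 to 261) beside 108.5, and finding 2 mismatching reads depends on depth. Of single wild-type reads, 8.25% (7.3 to 9.29) held a mismatch in the lower windows. In all 675 windows that were neither it was 8.85% (8.72 to 8.99). In the 6 windows lower by 3-fold there was none among 1247 positions (up to 2.95 per 1000), so at this depth they could not be told from the others. The measure was added after the data had been seen, and its bearing on the ratios was not tested.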

How the data were processed

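In each deposited file a line is a mapped read with its place, strand and a code for its match to the reference, in other words positions and no normalized unit. Build mm9 and SICER are named in the submitters' processing notes, with no role or version. The name of an aligner was not given in the sources used here. Each deposited read spans 25 bases, and no position and strand repeats within a library.

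Reads were moved 75 bp into the fragment and counted 1 kb either side of the TSS with the most reads (GENCODE vM1). Scaling used trimmed mean of M values (TMM) factors with trims of 30% and 5%. Ratios have exact conditional binomial (Clopper-Pearson) 95% intervals that cover counting error only. Medians use log2 ratios with 0.5 added to both counts. PA1 was matched to 2900092E17Rik by RefSeq synonyms (GRCm38.p6). Python 3.11.15, numpy 2.4.6, scipy 1.17.1, pandas 2.3.3 and matplotlib 3.10.9 were used, and the counting and scaling were tested on simulated data.

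The promoters and gene lists were chosen with earlier results of these data known. Named were PA1 and the 5 tested promoters on each side, the first and last promoters, those at the minimum, the 12 lower and up to 12 higher promoters whose interval bound lay farthest from 1, the best covered promoter of a bin, and list members. The 2-, 3- and 4-fold thresholds, the wild-type share of mismatching reads and the repeated mismatches were added after seeing the data. Alternatives changed scaling, window, shift, minimum, TSS, mismatching reads, trends and depth. Some genes of the lists are not reported here.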

Additional observations from a re-analysis of the deposited data

How the results depend on the processing

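Scaling to reads outside islands and promoters put the genome-wide median log2 ratio at -0.306, and scaling to total reads at -0.114. The number of lower segment promoters was 120 (beside 16.7% outside) and 54 (7.57%, beside 7.78%) in these, 22 at a minimum of 100 reads (3.31%, beside 3.35%), and 13 with trends of level and GC content removed (1.82%, beside 1.12%), where all 13 were among the 35. Under the other alternatives it was 29 to 45. Higher promoters numbered 1 under background scaling, 1 with the most upstream TSS and 7 with trends removed. The segment median minus that of the other promoters was -0.019, and 0.018 with a 500 bp window and -0.064 with reads without mismatch.

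Promoters lower by 3-fold were 13 at a minimum of 20 reads, beside 43 outside, 3 at a minimum of 100, beside 0, and 5 with trends removed, beside 4. Within 10 Mb of PA1 the 5 lower became 10 with total reads, 19 with background, 9 at a minimum of 20 and 2 with trends removed. Bins with a lower promoter were 8 instead of 15 with trends removed.

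Positions mismatching in the knockout alone were 499 when 2 reads were asked for and 5 at 5 reads. In the wild type alone they were 320, 0, and 0 when 80% of reads had to mismatch. The wild-type share was 47.2% when each read was counted at each position and 48.8% at 5 reads. Of the 15 lower or higher promoters named by the rule, 177 ratios under alternatives kept their call and 4 lost it: Zfand6 (1.37 with background scaling, 1.11 with trends removed), Fam189a1 (1.5 with background scaling) and Dkk3 (0.588 with trends removed). Named promoters under the read minimum gave no ratio. At a minimum of 100 reads these were Trim30d, Trim12a, Trim6, Pgpep1l, Dkk3 and Fam189a1. With the 500 bp window they were Trim12a, Pgpep1l and Dkk3, and at the most upstream TSS Sult2b1, Ffar2, PA1, Hpn and Fam189a1. PA1 ranged from 0.403 to 0.657 and had under 50 reads at its most upstream TSS. Depth limits the weakest promoters most, and 1 library per genotype leaves the spread between animals unmeasured.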
